A study of Mus musculus with 23 samples.

Results

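Olfr1395, a mouse odorant receptor gene, was followed through 23 sequencing libraries of RNA pulled down from activated cells of the olfactory epithelium. It is 1 of the 23481 gene rows in each deposited table and 1 of 1122 rows named Olfr, 20 of which are named as pseudogenes. The gene was chosen by measured values: its level in the pull-down after exposure to TMT at 1% and at 100%, against the controls of the same experiment. Those values are therefore given below as a description, without a test. Its levels with acetophenone and in the controls were known too when it was chosen, and are given in the same way.

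The study asked which odorant receptors are carried by neurons that an odor activates in the living animal. Olfactory epithelium of C57BL/6 mice at postnatal day 21 was taken after 1 h with an odor or with a control, and messenger RNA bound to phosphorylated ribosomal protein S6 (pS6) was precipitated with an antibody, amplified and sequenced. In the TMT experiment 4 litters each gave 1 control library, 1 library at 1% TMT and 1 at 100% TMT, 12 in all. In the acetophenone experiment 11 libraries came from 5 litters: controls from litters 1 to 5, 100% acetophenone from litters 1 to 3 and 1% acetophenone from litters 3 to 5. All mice were of 1 strain and carried no transgene named in the labels, and what the controls were given in place of the odor is not given in the sources used here. TMT is trimethylthiazoline, a compound of fox secretions that mice avoid, and acetophenone is an aromatic ketone often used as a test odor. The labels give a litter for each library but not how many animals it holds, so p-values measure only the spread between these libraries. The litter numbers restart in each experiment.

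A mature olfactory neuron expresses 1 allele of 1 receptor gene out of a family of many, and the receptor protein in its cilia binds odorants. Binding activates the G protein subunit Golf and adenylyl cyclase, and the rise of cyclic AMP opens an ion channel that depolarises the cell. Activity leads to phosphorylation of S6 on the ribosomes of that neuron, so RNA of the receptor it carries becomes enriched when pS6 is pulled down. The measurement is made on bulk tissue, where more activated cells with a receptor and more of its RNA in each such cell cannot be told apart.

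Olfr1395 lies on chromosome 11 of mouse genome build GRCm38, at chr11:49142274-49150453 on the plus strand (GENCODE M21). RefSeq lists it under the synonym MOR277-1. The annotation has 3 transcripts, of which the longest is 2984 bases, and the coding part of 951 bases (chr11:49148259-49149209) lies whole in the last exon of each, as is usual for receptors of this family. No other annotated gene overlaps it. The receptor with the closest coding sequence was its neighbour Olfr56, at 68.4% identity in a global alignment, followed by Olfr1396 (66.5%), Olfr31 on chromosome 14 (66.4%), Olfr30 (65.8%) and Olfr315 (64.7%), both farther along chromosome 11. The median identity over 1103 receptors was 56.1%, and 0 receptors were above 80% identity. The coding sequence held 55.6% G and C, against a median of 43.9% over 1104 receptors, and 1089 of them had a lower share.

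The counts were read as reads that align to a single place, so how far Olfr1395 differs from its relatives bears on what was counted. Bases 82 to 171 of its coding sequence are shown with the aligned bases of its closest relative Olfr56 and of Olfr31 and Olfr30, the 2 relatives among these 5 whose levels also rose with 100% TMT within litters. Capitals mark the bases that differ from Olfr1395, sequences run 5′ to 3′ on the coding strand, and all are from GRCm38 with GENCODE M21 transcripts.
Olfr1395 (chr11:49148340-49148429, plus strand): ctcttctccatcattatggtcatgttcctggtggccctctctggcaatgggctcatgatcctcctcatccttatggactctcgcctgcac
Olfr56 (chr11:49134275-49134364, plus strand): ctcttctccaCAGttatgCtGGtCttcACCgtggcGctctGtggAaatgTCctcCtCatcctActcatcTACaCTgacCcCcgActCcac
Olfr31 (chr14:14328188-14328277, plus strand): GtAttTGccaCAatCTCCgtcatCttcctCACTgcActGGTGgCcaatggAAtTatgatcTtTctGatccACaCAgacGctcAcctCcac
Olfr30 (chr11:58455777-58455866, minus strand): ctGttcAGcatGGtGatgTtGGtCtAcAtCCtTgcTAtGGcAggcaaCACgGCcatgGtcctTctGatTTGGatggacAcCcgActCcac
Of these 90 bases, 27 differ in Olfr56, 34 in Olfr31 and 36 in Olfr30, spread along the whole stretch. In the deposited tables, the count read as uniquely aligned reads equalled the count read as estimated for Olfr1395 in 22 of 23 libraries. An estimated count would also take in reads with several alignments. The columns have no header, so both meanings were read from the values, and the equality does not settle which reads were counted. Among the 135 Olfr rows with enough reads to test in the TMT experiment, 53 had equal values in all 12 of its libraries. Olfr1395 is not 1 of these 53, since it had 232 reads against an estimated 233 at 1% TMT in litter 2.

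Levels are given in CPM, the reads on a gene per 1000000 reads of the library after scaling by trimmed means (TMM). Library totals ran from 2118099 to 9526932 reads, with 2118099 to 4151769 in the acetophenone experiment and 2672161 to 9526932 in the TMT experiment. Reads on all Olfr rows made up 0.134 to 0.825% of a library in the acetophenone experiment and 0.0232 to 0.27% in the TMT experiment. The summed CPM of 10 markers of mature olfactory neurons, among them Omp, was 3886 to 7408 in the acetophenone experiment and 1929 to 4315 in the TMT experiment, with 0 of the 10 markers at 0 in all libraries.

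In the controls of the TMT experiment, Olfr1395 had 32, 34, 17 and 17 reads in litters 1 to 4, or 7.64, 5.82, 2.41 and 3.15 CPM. At 1% TMT it had 203, 232, 279 and 256 reads, or 68.3, 34.2, 34.2 and 28.1 CPM. At 100% TMT it had 101, 183, 51 and 159 reads, or 38.9, 30.0, 18.9 and 20.3 CPM. Every odor library was above every control library at both doses, and the lowest odor library, 100% TMT of litter 3, had an exact 95% Poisson interval of 14.1 to 24.9 CPM where the highest control had 5.23 to 10.8 CPM. Such intervals hold counting error alone: the reads carry no molecular identifiers, so several may stem from 1 molecule. Group means were 4.75 ± 2.42 CPM in controls, 41.2 ± 18.3 CPM at 1% TMT and 27.02 ± 9.31 CPM at 100% TMT (SD, n = 4).

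**Figure D1:**
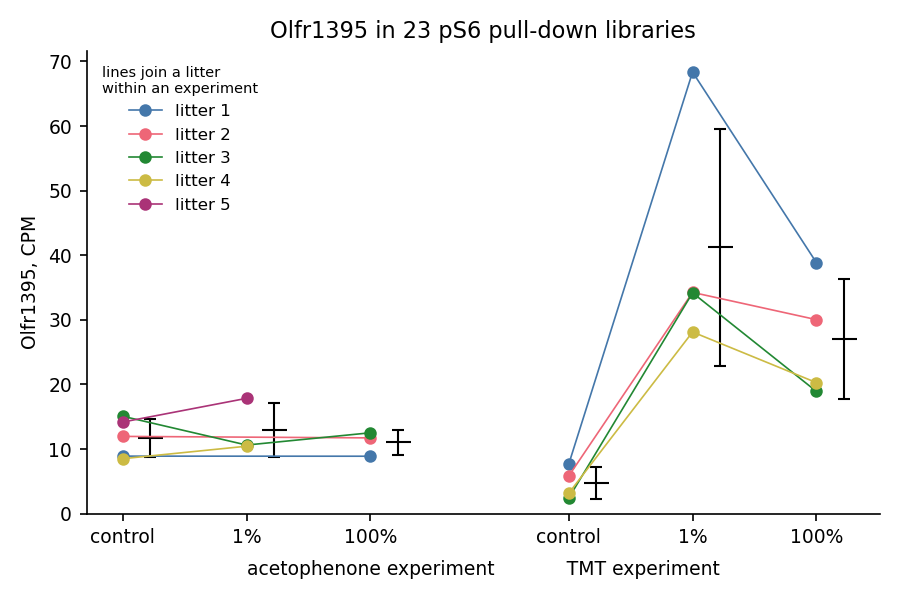
Olfr1395 level (CPM, linear axis) in each of the 23 libraries, by group, with lines joining the libraries of a litter within an experiment and black marks for the group mean ± SD (n = 3 to 5). All 8 TMT libraries sit between 18.9 and 68.3 CPM, above the 4 TMT controls, while the 11 libraries of the acetophenone experiment lie between 8.51 and 17.9 CPM.

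Within litters, the level at 1% TMT was 8.94, 5.89, 14.2 and 8.93 times that of the control in litters 1 to 4. At 100% TMT it was 5.08, 5.16, 7.85 and 6.44 times the control. Both doses thus stood above the control in 4 of 4 litters, and the 1% fold was the more variable between litters (SD of the log2 fold 0.52, against 0.30 at 100%). Both folds use the same 4 control libraries, so they are not independent of each other. The quasi-likelihood fit of edgeR over all 13233 genes gave a log2 fold change of 3.16 (SE 0.47, 95% interval 2.16 to 4.16) at 1% TMT and 2.57 (SE 0.46, 1.59 to 3.55) at 100% TMT. With litter as a block, which pairs the libraries of a litter, the values were 3.19 (SE 0.31) and 2.63 (SE 0.31).

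The higher dose did not give the higher level. The level at 100% TMT was 0.568, 0.877, 0.554 and 0.721 times that at 1% TMT in litters 1 to 4, lower in 4 of 4. The mean log2 difference was -0.58 (SD 0.31), and edgeR gave -0.59 (SE 0.42, 95% interval -1.50 to 0.32) without the block and -0.56 (SE 0.28, -1.17 to 0.06) with it. The 1% library of litter 1 was far above those of the other 3 litters, and without litter 1 the fold change between the doses was -0.46 with the block.

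Libraries of litter 1 carry another code in their titles (YJA) than those of litters 2 to 4 (YJG), and what the code stands for is not given in the sources used here. In litter 1, 349 to 644 Olfr rows had at least 1 read, against 168 to 533 in the other litters. Within litters 2 to 4 alone the folds over control were 5.16 to 7.85 at 100% TMT and 5.89 to 14.2 at 1% TMT, against 5.08 and 8.94 in litter 1.

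The size of the fold depended on what Olfr1395 was set against. As a share of all Olfr reads it made up 0.648, 2.29, 0.616 and 0.820% in the controls of litters 1 to 4. The share was 2.62, 7.33, 6.63 and 3.75% at 1% TMT and 1.96, 5.26, 3.40 and 1.10% at 100% TMT. On this scale the 1% libraries were above all controls, while at 100% the libraries of litters 1 and 4 lay below the control of litter 2, whose 34 of 1486 Olfr reads gave a 95% Wilson interval of 1.64 to 3.18%. Within litters the share at 100% was 3.02, 2.30, 5.52 and 1.34 times the control, and 0.294 to 0.747 times the share at 1%.

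The other Olfr rows were also higher in sum in the same libraries. Their summed CPM was 1.24 to 2.17 times the control at 1% TMT and 1.38 to 4.78 times at 100% TMT, higher in 4 of 4 litters at both doses. Between the doses they went the opposite way to Olfr1395 in 3 of 4 litters, at 0.767 to 2.52 times the 1% level. When libraries were scaled to their Olfr reads, the median log2 fold change of all genes went from 0.02 to -0.75 at 1% and from 0.02 to -1.15 at 100% TMT. On that scale edgeR gave Olfr1395 2.23 (SE 0.86, 95% interval 0.54 to 3.92) at 1% and 1.44 (SE 0.84, -0.22 to 3.09) at 100% TMT. The part of this general rise in the values of Olfr1395 was not tested.

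Mature neuron markers were read as another scale. All libraries are pS6 pull-downs, so these markers follow the neuron RNA captured and are not a count of the neurons present. Of their mean sum of 3014 CPM in TMT controls, Stoml3 held 1496 CPM. With the block Stoml3 had a log2 fold change of 0.58 at both TMT doses, and Omp had 0.20 at 1% and 0.13 at 100%. Their summed CPM was 0.880 to 1.78 times the control at 1% TMT and 0.992 to 1.81 times at 100% TMT. Per 1000 reads on those 10 markers, Olfr1395 had 1.79, 2.01, 0.813 and 1.63 reads in controls, 18.2, 8.12, 8.04 and 8.17 at 1% TMT, and 9.19, 8.96, 4.38 and 5.82 at 100% TMT. The odor libraries were again all above the controls, and 3 of the 4 values at 1% lay within 8.04 to 8.17. On this scale the 100% level was lower than the 1% level in litters 1, 3 and 4 and was 1.10 times it in litter 2.

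**Figure D2:**
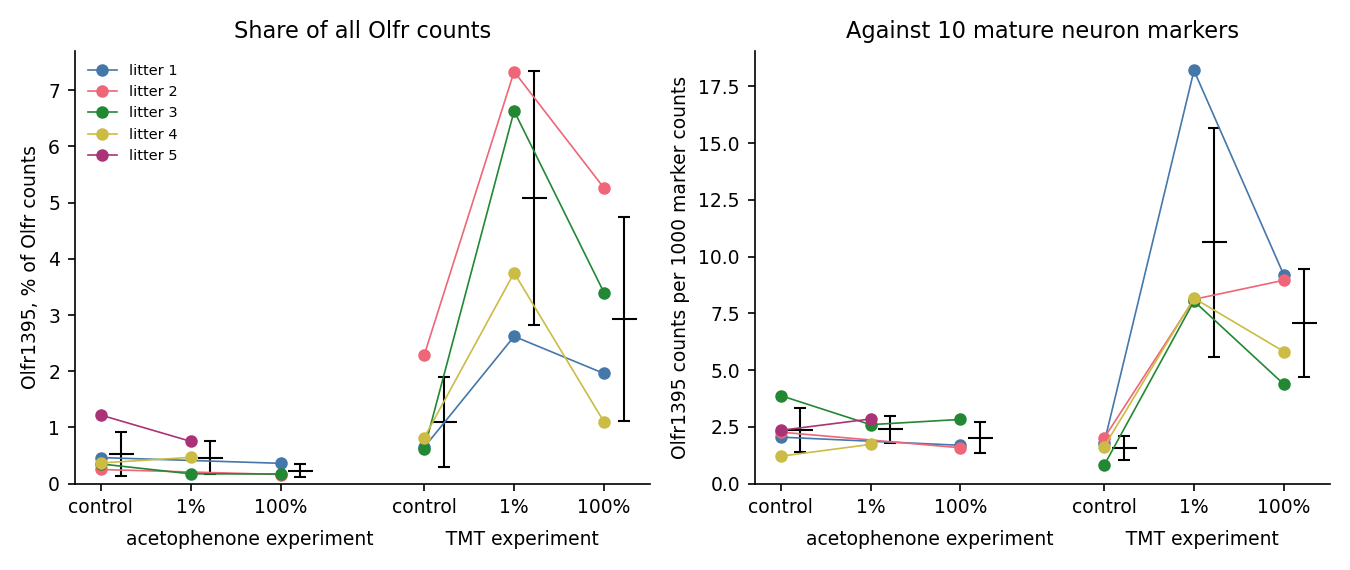
Olfr1395 as a percentage of all Olfr reads (left) and per 1000 reads on 10 mature olfactory neuron markers (right) in each library, with lines joining litters and black marks for mean ± SD. On the left the 100% TMT points, 1.10 to 5.26%, overlap the controls, 0.616 to 2.29%, and on the right they do not.

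Acetophenone served as a second odor. In acetophenone controls Olfr1395 had 28, 35, 41, 38 and 50 reads in litters 1 to 5, or 8.91, 11.96, 15.1, 8.51 and 14.2 CPM. At 1% acetophenone it had 10.6, 10.4 and 17.9 CPM in litters 3 to 5, and at 100% acetophenone 8.89, 11.7 and 12.5 CPM in litters 1 to 3. The 3 groups overlapped, with means of 11.7 ± 2.99 (n = 5), 13.0 ± 4.22 (n = 3) and 11.04 ± 1.91 CPM (n = 3).

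At 100% acetophenone the fold over control within litters was 0.830 to 0.999, and edgeR gave a log2 fold change of -0.13 (SE 0.45, 95% interval -1.19 to 0.92), or -0.11 (SE 0.39) with litter as a block. At 1% acetophenone the fold was 0.704 to 1.26, and edgeR gave 0.06 (SE 0.43, -0.97 to 1.09), or 0.07 (SE 0.32) with the block. The difference between the odors was not tested. In the same libraries the other Olfr rows in sum were at 1.28 to 1.70 times the control at 100% acetophenone.

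The control levels of Olfr1395 in the experiments did not overlap. TMT controls (2.41 to 7.64 CPM, n = 4) all lay below acetophenone controls (8.51 to 15.1 CPM, n = 5). The difference between the group means of log2(CPM + 1) was -1.21. As a share of Olfr reads the direction turned, with 1.09% in TMT controls against 0.53% in acetophenone controls (log2 difference 1.05). The experiments were separate sets of libraries with different totals of Olfr reads, so the experiment and its batch of libraries cannot be told apart, and each odor is compared only with its own controls.

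Set against the whole table, few genes were called at all. Without the litter block, edgeR called 0 of 13233 genes (0%) at 100% TMT, 0% at 1% TMT and 0% between the doses, and 0% at either acetophenone dose, of 11564 genes at 100% and 12077 at 1%. With the block it called 314 genes (2.37%) at 100% TMT, of which 10 were Olfr rows, 1 gene (0.00756%) at 1% TMT, and 0% between the TMT doses. The block called 11 genes (0.0951%) at 100% acetophenone and 1 (0.00828%) at 1% acetophenone. The gene called at 1% TMT was Olfr1395 itself, and it was also 1 of the 10 Olfr rows at 100% TMT. It was chosen on both contrasts, so its calls restate that choice and do not test it. With any 1 litter left out the block called 0 genes at 1% TMT, and 0 to 179 at 100% TMT. Every call named below with the block was absent without it.

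The filter on low counts asked for about 1.47 CPM in at least 4 of the 12 TMT libraries, and 135 of the 1122 Olfr rows, 2 of them named pseudogenes, passed it. A receptor could pass through odor libraries alone, and 120 of the 135 did not reach that level in all 4 controls. Olfr1395 is 1 of the 15 that did. Among those 15 the median log2 fold change was 0.12 at 100% TMT and 0.04 at 1% TMT. Olfr1395 had the highest value of the 15 at both doses, but it was chosen on these contrasts, so the rank restates that choice. Over all 135 rows the medians were 0.91 and 0.59, with 19 rows above Olfr1395 at 100% TMT and 5 above it at 1% TMT. Those 5, Olfr175-ps1, Olfr376, Olfr934, Olfr220 and Olfr195, are named after their values were seen.

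Groups without overlap were uncommon. Olfr rows with all 4 libraries above all 4 controls numbered 3 of 135 (2.22%) at 1% TMT and 9 of 135 (6.67%) at 100% TMT, against 0.899% and 4.22% of all genes tested. As 120 of the 135 Olfr rows did not reach the filter level in all 4 controls, many could pass the filter through odor libraries. These shares therefore cannot tell whether receptors differ from other genes, and the same limit applies to the dose orders counted next. The 3 rows above the controls at both doses were Olfr1395, Olfr30 and Olfr376, and the 36 genes with that pattern in the whole table include them.

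The order of the doses was then counted over the whole table. Levels of control below 100% below 1% TMT in each of the 4 litters occurred in 1 of 135 Olfr rows (0.741%), Olfr1395, and in 5 of 13233 genes (0.0378%). The remaining 4 were 1600016N20Rik, Anln, Cnpy1 and Isg20l2, and this pattern was picked after the values of Olfr1395 were known. The rising order of control below 1% below 100% TMT occurred in 2 Olfr rows (1.48%), Olfr30 and Olfr212, and in 128 genes (0.967%). As a share of Olfr reads, Olfr1395 was the single gene of 13233 in the order that peaks at 1%. That scale lowers every gene in the odor libraries, where summed Olfr reads were higher. On it, 119 genes were above the control in each litter at 1% TMT and 216 at 100%, against 1078 and 1751 in CPM. The lone place of Olfr1395 can therefore not be told apart from the scale. Per 1000 marker reads Olfr1395 was not in this order, since in litter 2 its 100% level was 1.10 times the 1% level.

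Over the 135 Olfr rows the log2 difference between 100% and 1% TMT had a median of 0.18 and quartiles of -0.30 and 0.89, with 83 rows above 0. Olfr1395, at -0.59, had 109 rows above it and 25 below. Its position was thus in the lower part of the receptors but not at their edge. Rows with a lower level at 100% than at 1% in every litter numbered 7 (5.19%), Olfr1395 among them.

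**Figure D3:**
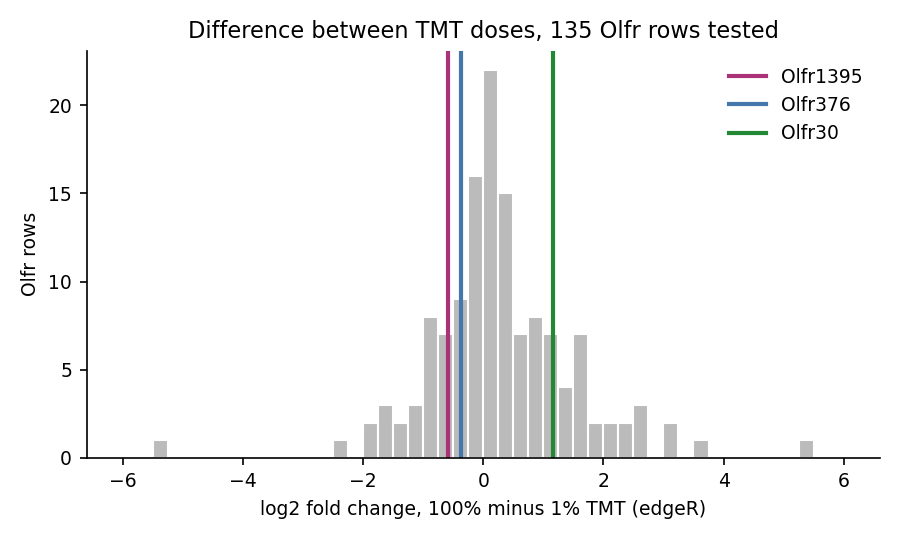
Histogram of the edgeR log2 fold change between 100% and 1% TMT over the 135 Olfr rows tested, with vertical lines for Olfr1395 (-0.59), Olfr376 (-0.37) and Olfr30 (1.16). Most rows lie right of Olfr1395, and 25 lie to its left.

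Of the 10 Olfr rows called within litters at 100% TMT, 9 rose and 1, Olfr222, fell. The risers beside Olfr1395 were Olfr131, Olfr30, Olfr31, Olfr350, Olfr376, Olfr449, Olfr531 and Olfr96. For the 9 receptors other than Olfr1395, the log2 difference between 100% and 1% TMT within litters ran from -1.26 to 3.93 with a median of 2, and 7 of the 9 were positive. At 1% TMT their median log2 fold change was 1.61, and 8 of the 9 lay below the 3.19 of Olfr1395. The exception was Olfr376. These 9 were picked by their call at 100% TMT in the same fit, which favours rows far from the control at that dose. Olfr1395 was chosen on both doses, so the differences between it and the 9 in part restate these choices.

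Olfr376 followed the TMT doses in the way most like Olfr1395. It had 6, 1, 2 and 0 reads in the controls, 58, 118, 107 and 239 at 1% TMT, and 59, 87, 11 and 128 at 100% TMT. Its level at 100% was lower than at 1% in 3 of 4 litters, and its controls lay near the limit of detection. Over the 12 TMT libraries, with each litter's mean removed, its log2 CPM correlated with that of Olfr1395 at r = 0.95, against a median of 0.37 for 134 Olfr rows and 0.01 for 13232 genes.

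The next receptors by this measure were Olfr527 (0.86), Olfr224 (0.82), Olfr220 (0.77) and Olfr30 (0.77). The 5 closest other genes were Acox2 (0.95), which encodes a peroxisomal oxidase, Slc16a3 (0.94), a lactate transporter, Papss2 (0.94), which makes the sulfate donor for sulfation, Lars2 (0.94), the mitochondrial leucyl-tRNA synthetase, and Nasp (0.92), a histone chaperone. These correlations describe the 12 libraries, which share 4 controls, and carry no test.

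Olfr30 was also above its controls at both TMT doses, in another dose order. It had 10.98, 5.82, 3.97 and 13.5 CPM in controls, 14.8, 15.4, 17.1 and 27.5 CPM at 1% TMT, and 47.3, 25.6, 26.0 and 62.9 CPM at 100% TMT, higher at 100% than at 1% in 4 of 4 litters.

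With 100% acetophenone, Olfr30 and Olfr376 passed the test within litters. Olfr30 went from 12.2 ± 4.33 CPM in controls (n = 5) to 74.2 ± 37.6 CPM at 100% (n = 3), with a log2 fold change of 2.55 (edgeR with litter block, adjusted p = 0.00817). Olfr376 went from 5.27 ± 3.05 to 39.9 ± 26.6 CPM (3.05, edgeR with litter block, adjusted p = 0.0167). The control means cover litters 1 to 5, while the fit used only litters 1 to 3, so the fold changes are not those between the printed means. Olfr1395 had -0.11 in the same fit. Whether the fold changes of the 3 receptors differ was not tested.

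**Figure D4:**
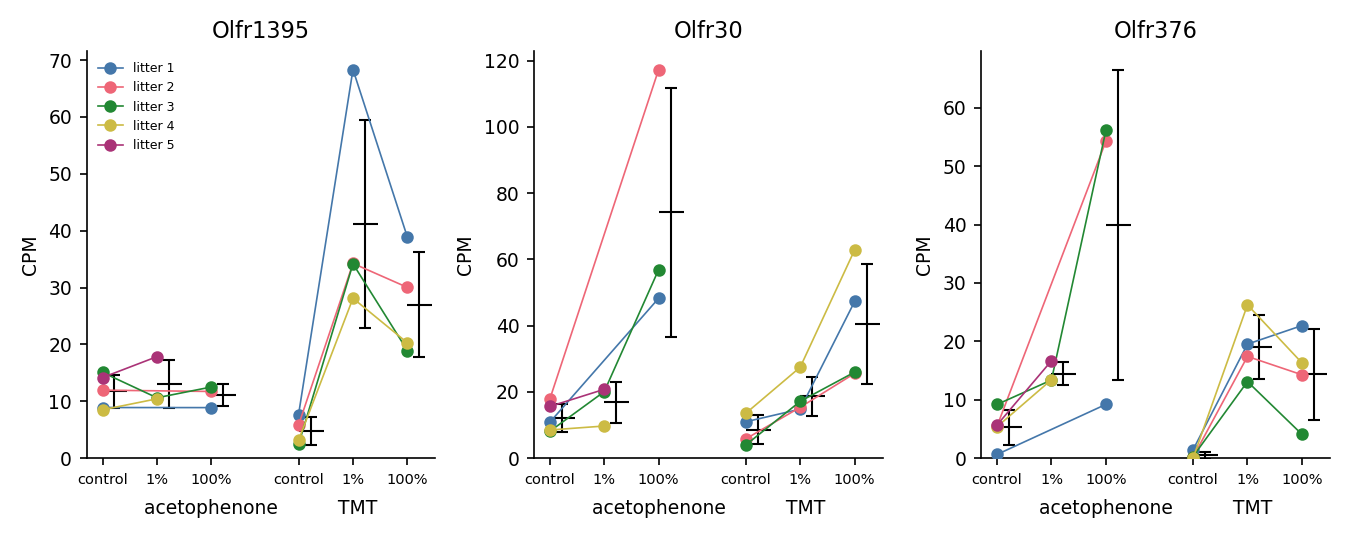
Level (CPM, each panel with its own linear axis) of Olfr1395, Olfr30 and Olfr376 in each library, with lines joining litters and black marks for mean ± SD. All 3 are above their controls at both TMT doses, while with 100% acetophenone Olfr1395 stays at 8.89 to 12.5 CPM and Olfr30 reaches 117.3 CPM.

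Receptor genes lie in clusters that arose by duplication, so the rows beside Olfr1395 were read as a background of close relatives and neighbours. Within 1 Mb there were 18 other Olfr rows, at distances from 34.5 kb before to 415 kb after it. Distances run between RefSeq gene models (GRCm38.p6), where Olfr1395 spans the shorter interval chr11:49148259-49149212 without the upstream exons of GENCODE. Of the 18 rows, 6 had enough reads to test. With the block, edgeR gave them log2 fold changes of 0.20 to 1.61 at 1% and -0.04 to 2.66 at 100% TMT. It called 0 of the 6 at either dose, where it called 0.00756% of all genes at 1% and 2.37% at 100%. Olfr10 had no read in any library, and 6 rows including it had at most 3 reads in each TMT library.

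The nearest expressed neighbour, Olfr56, lies 12.9 kb before Olfr1395 and is also its closest relative in coding sequence. Its controls had 20.1, 3.59, 7.09 and 9.08 CPM, 1% TMT had 21.9, 23.9, 30.1 and 7.47 CPM, and 100% TMT had 22.3, 11, 8.90 and 8.29 CPM. The groups overlapped at both doses, and edgeR with the block gave 1.21 (SE 0.52, adjusted p = 0.694) at 1% and 0.44 (SE 0.50, adjusted p = 0.691) at 100% TMT. Olfr1396, 34.5 kb before Olfr1395, had 0 to 14 reads in controls and 0 to 33 at 100% TMT (log2 2.66, SE 1.34, edgeR adjusted p = 0.311). Olfr1394, 10.8 kb after Olfr1395, had 0 to 12 reads and was not tested.

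**Figure D5:**
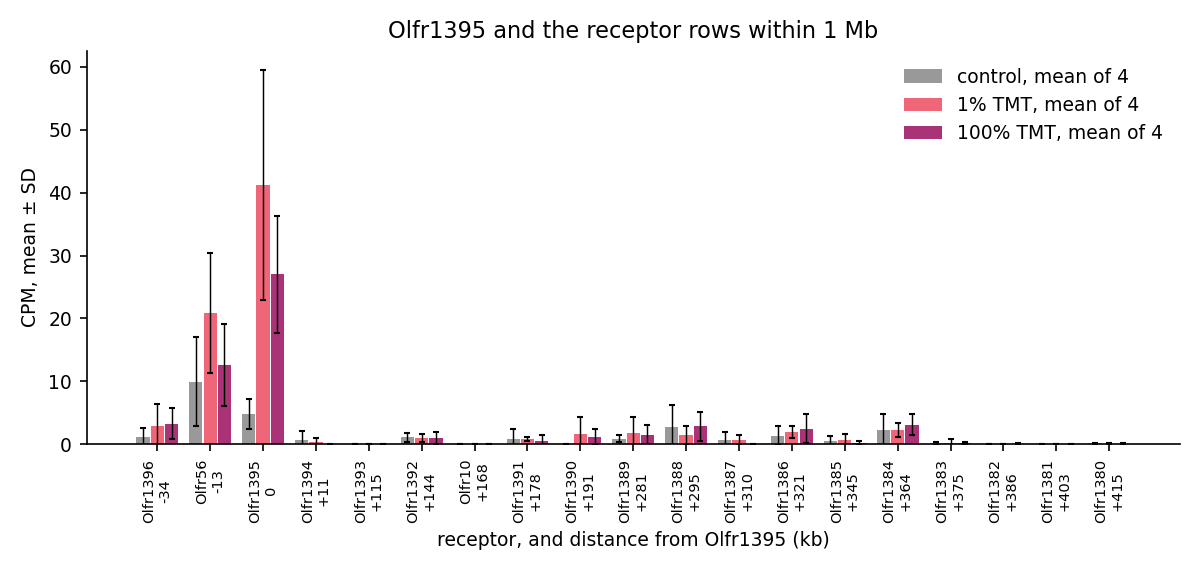
Mean ± SD level (CPM, n = 4 per bar) of Olfr1395 and of the 18 other Olfr rows within 1 Mb in TMT controls, 1% TMT and 100% TMT, ordered by distance in kb from the RefSeq model of Olfr1395. The bars of Olfr1395 go from 4.75 CPM in controls to 41.2 CPM at 1% TMT, while those of Olfr56 go from 9.96 to 20.9 CPM with overlapping libraries.

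Of the 5 receptors closest in coding sequence, 2 rose within litters at 100% TMT, Olfr31 (log2 4.94, SE 1.08, edgeR adjusted p = 0.0415) and Olfr30 (2.33, SE 0.33, edgeR adjusted p = 0.0121). In that fit 9 of 135 Olfr rows were called as higher, and 2.37% of all genes were called in either direction. Whether closeness in sequence bears on the rise was not tested. Olfr315 had 0.97 (SE 0.55, edgeR adjusted p = 0.358). At 1% TMT 0 of the 5 passed, where 0.00756% of all genes did. The sequences printed above show that Olfr31 and Olfr30 differ from Olfr1395 at 34 and 36 of the 90 bases in that stretch.

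Lists of genes that act with a receptor in the neuron were read beside Olfr1395. Of 24 genes of olfactory signal transduction, 20 were tested, and with the block 1 rose at 100% TMT and 1 fell (median log2 fold change 0.16, against 0.02 for all genes, of which 2.37% were called). Slc12a2, the chloride importer of the olfactory neuron, had 3.20 (SE 0.47, edgeR adjusted p = 0.0143), and Arrb2, which encodes the beta-arrestin that shuts off receptors, had -0.90 (SE 0.17, edgeR adjusted p = 0.0293). At 1% TMT the block called 1 of 13233 genes (0.00756%), Olfr1395 itself, so a count of 0 for any list there is no contrast with Olfr1395. Of these 20, 0 were called at 1% TMT (median 0.21, against 0.03 for all genes).

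Of 17 genes of receptor trafficking and receptor choice, Hspa5, the chaperone BiP of the endoplasmic reticulum, rose at 100% TMT (1.24, SE 0.24, edgeR adjusted p = 0.0293) and Lhx2, a transcription factor needed for receptor expression, fell (-0.65, SE 0.15, edgeR adjusted p = 0.0496), 2 of 17 against 2.37% of all genes. At 1% TMT 0 of the 17 were called, where 0.00756% of all genes were.

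Genes induced by neuronal activity were read in the same way. Of 32 listed, 24 were tested and 4 rose at 100% TMT with the block, where 2.37% of all genes were called in either direction. These were the transcription factor genes Nr4a1 (1.78, SE 0.29, edgeR adjusted p = 0.0213), Nr4a2 and Nfil3 (1.45, SE 0.14, edgeR adjusted p = 0.00497) and the phosphatase gene Dusp1 (0.83, SE 0.19, edgeR adjusted p = 0.0477). At 1% TMT 0 of the 24 were called, where 0.00756% of all genes were. The median log2 fold change of the list was 0.11 at 1% against 0.46 at 100%. Nr4a1 was at 86.7 ± 33.0 CPM in controls, 117 ± 50.9 at 1% and 297 ± 113 at 100% TMT (SD, n = 4), whereas Olfr1395 had its highest mean at 1%. Whether the dose patterns of these genes and of Olfr1395 differ was not tested.

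Markers of other cell types in the epithelium were also followed. Summed markers of immature neurons were at 2227 to 3308 CPM in controls, 1816 to 2739 at 1% and 1445 to 2320 at 100% TMT, and 2 of 9 tested, Tubb3 and Marcksl1, fell at 100% with the block. Markers of ensheathing glia and endothelium were at 1217 to 1467, 1020 to 1283 and 683.4 to 894.3 CPM, and Apoe, 1 of 7 tested, fell at 100%, where 2.37% of all genes were called. Among markers of basal, sustentacular, Bowman gland, immune, vomeronasal and blood cells, 0 were called at either TMT dose. Over all genes 2.37% were called at 100% and 0.00756% at 1% TMT. Medians with the block ran from -0.78 for basal cells to 0.69 for sustentacular cells at 100%, and from -0.18 for vomeronasal neurons to 0.52 for blood at 1%. The 5 blood genes include 4 globins with near-identical copies, of which Hba-a1 and Hba-a2 had the same values in every group. With the block 5 of 5 were above 0 at 1% and 0 of 5 between the doses (median -1.42). Against the control at 100% TMT 0 of 5 were above 0 (median -0.69), where Olfr1395 had 2.63. Summed levels, which count that pair under both names, were 3732 to 7254 CPM in controls, 2432 to 18030 at 1% and 1570 to 4858 at 100% TMT. Of the 10 mature neuron markers 0 were called at either dose, with medians of 0.24 at 1% and 0.16 at 100% TMT. The part of these shifts in the level of Olfr1395 was not tested.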

How the data were processed

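RNA bound to pS6 was measured in 23 libraries. The cDNA was amplified and made into libraries with a Nextera kit, per the labels' protocols, and the authors used Bowtie, bedtools and build mm10, per the submitters' processing notes. Neither the tool versions nor the gene annotation is given in the sources used here. The deposited tables have no header. The last deposited column was read from its values as estimated counts, which were rounded to whole numbers and used as an alternative. The first value column holds whole counts, read from its values as uniquely aligned reads. How the first column treats genes with near-identical copies is not given in the sources used here. In it Hba-a1 and Hba-a2 had the same lowest, highest and summed counts in every group.

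Counts were fitted with edgeR 4.0.16 in R 4.3.3 (TMM, filterByExpr with a minimum count of 10, quasi-likelihood F test, Benjamini-Hochberg adjustment over all genes tested, threshold 0.05). All 12 TMT libraries shared a fit, while an acetophenone dose was set against controls from the same litters. The standard error is the log2 fold change over the square root of F. CPM used TMM over all 23 libraries. The controls of the 2 experiments were set side by side on log2(CPM + 1), count intervals came from SciPy 1.17.1, and coding sequences were aligned with Biopython 1.88. DESeq2 1.42.0, other scalings, no filter and leaving out each litter were alternatives.

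The labels give litters, so libraries of a litter are paired. Deviations from group means were correlated between libraries of a litter, from -0.04 to 0.36 over the TMT comparisons and from 0.57 to 0.89 over those with acetophenone.

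Other genes were named by rule: receptors within 1 Mb, the 5 closest in sequence, receptors called within litters with TMT, the 5 receptors and 5 other genes most correlated over the TMT libraries, and up to 4 members per list. Closeness was taken from coding sequences of GENCODE M21 transcripts in place of proteins. Olfr1395, the lists and the tests were chosen with earlier results of these data known.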

Additional observations from a re-analysis of the deposited data

Results flagged for a closer look

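In 3 groups, on CPM or on the share of Olfr reads, 1 library of Olfr1395 stood apart from the rest by Dixon's gap criterion. By chance the criterion flags about 1 in 20 groups, and how many groups were searched is not given here. At 1% TMT the library of litter 1 had 68.35 CPM, far above the 28.1 to 34.2 CPM of the other 3 litters. Per 1000 marker reads, a scale not among the 3 flags, that library had 18.2 against 8.04 to 8.17. As a share of Olfr reads, the acetophenone control of litter 5 had 1.22%, against 0.252 to 0.464% in the other 4 controls, and the TMT control of litter 2 had 2.29%, against 0.616 to 0.820% in the other 3. Both of these control libraries had the fewest Olfr reads of their group, 4112 and 1486.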

How the results depend on the processing

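For the log2 fold change of Olfr1395 with TMT, the direction was the same under every alternative run. Leaving out 1 litter gave 2.47 to 2.65 at 100% TMT (2.51 to 2.71 with the block), 3.02 to 3.35 at 1% TMT (2.98 to 3.39) and -0.72 to -0.42 between the doses (-0.68 to -0.46). Scaling to Olfr reads gave 1.44 at 100% and 2.23 at 1% TMT, and scaling to mature neuron markers, added after seeing the data, gave 2.18 at 100% TMT. With acetophenone, leaving out a litter gave -0.20 to -0.03 at 100% and -0.18 to 0.33 at 1%. The difference between controls was -1.44 to -0.99 without 1 library, and turned to 1.05 as a share of Olfr reads.

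Counts of called genes depended on the fit. The main fit called 0 genes in each comparison, also without any 1 litter, though at an unadjusted p under 0.05 it had 1102 higher and 842 lower at 100% TMT, 389 and 179 at 1% TMT, 294 and 403 between the doses, 48 and 13 at 100% acetophenone and 50 and 43 at 1%. The balance turned with the scaling: with TMT it was 121 higher and 2280 lower at 100% and 43 and 356 at 1% when scaled to Olfr reads, and 419 and 2543, then 165 and 1675, when scaled to mature neuron markers. The replicate block, pairing libraries by litter, called 314, 1, 0, 11 and 1 genes in that order, and DESeq2 called 483, 4, 22, 5 and 1. Scaling to Olfr reads without the block called 14 at 100% and 3 at 1% TMT. The block changed no direction for Olfr1395 (2.63 at 100% and 3.19 at 1% TMT). The 2 receptors in rising dose order became 4 with estimated counts and 0 as a share of Olfr reads. The cause of these shifts was not tested. With 17 to 34 reads in each TMT control, counting error limits the folds.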
